A study of Sus scrofa with 2 samples.

Results

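The miRNAs described here are the late-named porcine miRNAs on the array, defined as every probe whose name starts with ssc-miR- and carries a number of 1000 or higher. The rule used names only and no measured value. It found 24 probes among the 355 on the array, which stand for 20 hairpins, because both arms of miR-1306, miR-1839, miR-2320 and miR-4334 were printed. The 225 ssc-miR- probes numbered below 1000 served as the comparison. The remaining probes were 6 for let-7 and 100 added by the authors with the prefix Y-.

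Anterior pituitary RNA came from Bama minipigs (YB), a small Chinese breed, and from Landrace pigs (YC), a large commercial breed. All piglets were healthy females, 20 days old, and no treatment is named. RNA of 3 pigs was combined into 1 pool per breed, and each pool was hybridized to 1 custom miRNA array on which tagged small RNAs were stained with Cy5. With 1 array per breed there was no spread between pigs or arrays, so no difference between the breeds was tested and no p-value is given, and the breed and the array cannot be told apart.

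Each value is a linear signal intensity after the authors' background subtraction and LOWESS normalization. They summed to 695596 in YB and to 671754 in YC, with a median over all probes of 114 and 95.1. A signal of 100 was taken as a floor. For a named miRNA, a breed ratio was given only where both signals reached this floor. Where a single signal did, the ratio is a limit against the floor, written as at least N-fold. Ratios are Bama minipigs over Landrace. The number of arrays limits the precision of all of them.

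A miRNA is cut from a hairpin precursor, first in the nucleus by Drosha with its partner DGCR8 and then in the cytoplasm by Dicer, and either arm of the hairpin may be kept. Its seed, bases 2 to 8 from the 5′ end, pairs with target mRNAs. miRBase numbers follow the order of registration, so low numbers mostly belong to miRNAs that were cloned early and are shared by many animals, whereas high numbers often come from deep sequencing of single species. Probes with high numbers therefore include miRNAs whose names are shared with other mammals and miRNAs registered in pig alone.

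Among the 24 late-named miRNAs, 11 have names shared with human or mouse, 3 have names shared with cattle (both arms of miR-2320, and miR-2476) and 10 have names used for pig only (miR-4331 to miR-4339). These classes were assigned from knowledge of miRBase names and not by a database search. The sequences below, which the study lists for its probes, belong to the 10 miRNAs that reached 100 on an array and are shown because the ratios and limits given for single late-named miRNAs rest on them. Capitals mark the seed.
ssc-miR-1285: cUGGGCAAcauagcgagaccccgu
ssc-miR-1306-5p: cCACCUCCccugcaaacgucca
ssc-miR-1307: aCUCGGCGuggcgucggucgug
ssc-miR-1343: cUCCUGGGgcccgcacucucgc
ssc-miR-2320: uGGCACAGgguccagcugucgg
ssc-miR-2320*: cGAUGAUGgucccuguguuug
ssc-miR-2476: uCCCUGUGgucuagugguuag
ssc-miR-4331: uGUGGCUGugguguaggccagc
ssc-miR-4334-3p: uCCCUGUCcuccaggagcuc
ssc-miR-4334-5p: cCCUGGAGugacgggggug

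The 24 late-named miRNAs had 24 different seeds, so no 2 of them share one. For 22 of them no other probe of the array has the same seed, whereas 76 of the 225 lower-numbered probes (33.8%) share their seed with another probe. The late-named miRNAs on this array are thus mostly single members and not families.

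The tissue label was set beside 5 miRNAs known from the anterior pituitary: ssc-miR-7, Y-90 (miR-375), ssc-miR-26a, Y-76 (miR-200a) and Y-77 (miR-200c). The list was chosen with earlier results of these data known, so it is not an independent check of the label. All 5 of them were above the floor on both arrays, and the brightest was ssc-miR-7, with 35031 in YB and 42831 in YC. The 6 striated muscle miRNAs summed to 1528 in YB and 660 in YC. Of these, ssc-miR-1, ssc-miR-133a-3p and ssc-miR-133b were past 2-fold higher in Bama minipigs, ssc-miR-206 was past 2-fold lower, ssc-miR-499-5p (175 and 192) was not past 2-fold, and ssc-miR-208b was at 0.829 and 4.29. The brightest muscle probe was that of ssc-miR-133b in YB, with 439 (80.6 in YC), next to ssc-miR-1 with 426, and that of ssc-miR-206 in YC, with 278 (117 in YB). The 5 blood cell miRNAs summed to 5497 and 6026, led by ssc-miR-451 with 5286 and 5841, while ssc-miR-142-3p, ssc-miR-142-5p and ssc-miR-155 were below 2 on both arrays. The 5 brain and posterior lobe miRNAs summed to 5649 and 5748, led by ssc-miR-128 with 5384 and 5602, ssc-miR-153 had 180 and 98.0, the latter under the floor, and ssc-miR-124a, ssc-miR-9-1 and ssc-miR-219 were under it on both arrays. Liver ssc-miR-122 was under the floor, with 40.3 and 6.56. The part of these other tissues in the breed ratios of the late-named miRNAs was not tested.

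As a group, the late-named miRNAs gave weak signals. Their median signal was 34.4 in YB and 42.4 in YC, compared with 222 and 231 for the 225 lower-numbered ssc-miR- probes. The late-named medians lay under the floor of 100, so the gap to the lower-numbered medians is not read as an exact ratio. The late-named median was also the lower one when each hairpin was counted once by its brighter arm. All other probes of the array had medians of 125 in YB and 97.9 in YC, the latter also under the floor. These were again above those of the late-named miRNAs. The size of the gap thus depends on the comparison while its direction did not change. Of the 24, 10 reached the floor of 100 in YB and 8 in YC, and the 8 were among the 10. Of the lower-numbered probes, 132 (58.7%) reached it in YB, 129 (57.3%) in YC and 126 in both. Signals above 1000 were found for 3 and 2 of the late-named miRNAs and for 82 and 78 of the lower-numbered probes. No late-named miRNA passed 10000 on either array, whereas 12 and 14 lower-numbered probes did. Because probes differ in how strongly they bind, a comparison between probes is one of signals and not of molecule numbers. In tissue RNA, fewer cells of a type and less RNA per cell cannot be told apart.

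The weak signals did not begin at the number 1000. The median signal was 2631 in YB and 1846 in YC for the 49 probes numbered below 100, and 541 and 695 for the 68 numbered from 100 to below 200. It was 168 and 176 for the 54 numbered from 200 to below 400 and 48.3 and 39.7 for the 54 numbered from 400 to below 1000. The medians thus fell through every lower band, and the last of them lay close to the medians of the late-named miRNAs, 34.4 and 42.4. Both arrays gave the same order of these 4 bands. At the limit itself, ssc-miR-935, the highest number below 1000, had signals of 17.5 and 29.6, and ssc-miR-1224, the lowest number above it, had 4.20 and 14.6. The bands were chosen after the values had been seen.

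The late-named miRNAs made up 6.76% of the probes but 1.20% of the summed signal in YB and 1.49% in YC. Most of their signal came from few probes. ssc-miR-1285 alone held 42.6% of their sum in YB and 56.4% in YC. The sum over all 24 was 8331 in YB and 10018 in YC, and without ssc-miR-1285 it was 4786 and 4367, so that the order of the breeds in this sum rests on that single probe.

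Of the 11 miRNAs with names shared with human or mouse, 4 were above the floor on both arrays and 7 on neither. The brightest late-named miRNA was ssc-miR-1285, with 3545 in YB and 5651 in YC, the 64th and 39th signal of the 355 probes. Its log2 ratio was -0.67, lower in Bama minipigs but less than 2-fold. The signals of ssc-miR-1307 were 425 and 413 (log2 ratio 0.04). This ratio was close to 0, and its sign turned under median scaling, scaling to the 75th percentile and quantile normalization. ssc-miR-1343 had 319 in YB and 432 in YC, a log2 ratio of -0.44.

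The hairpin of miR-1306 lies in the gene of DGCR8, the partner of Drosha in the cut that frees hairpins, which is known to act on its own mRNA. Its 5p arm, ssc-miR-1306-5p, had a signal of 185 in YB and 353 in YC. The log2 ratio of -0.93 was just short of 2-fold, and it passed 2-fold under median scaling (-1.05), scaling to the 75th percentile (-1.12) and quantile normalization (-1.13). The 3p arm, ssc-miR-1306-3p, stayed under the floor with 92.5 and 51.0, so no ratio is given for it.

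Among the other names shared with human or mouse, both arms of miR-1839 were under the floor. The signals were 17.6 and 3.98 for ssc-miR-1839-5p and 2.12 and 4.03 for ssc-miR-1839-3p. Those of ssc-miR-1271 (8.16 and 9.17), ssc-miR-1277 (0.911 and 2.83) and ssc-miR-1296 (9.73 and 9.69) were below 10 on both arrays. ssc-miR-1224, which is known in other mammals as a mirtron, a hairpin released by splicing, had the values given above. None of these 6 miRNAs has a ratio.

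All 3 probes with names shared with cattle reached the floor on at least 1 array. ssc-miR-2476 was the second brightest late-named miRNA on both arrays, with 1069 in YB and 1124 in YC (log2 ratio -0.07). Its sequence closely resembles the 5′ end of the glutamate tRNA. It was not compared with tRNA sequences here, and whether the probe also binds tRNA fragments was not tested. For miR-2320, ssc-miR-2320 had 273 and 417 (log2 ratio -0.61), and the other arm, ssc-miR-2320*, had 121 in YB and 95.1 in YC. The Landrace signal lay under the floor, so in the deposited values the Bama signal of ssc-miR-2320* was the higher one, by at least 1.21-fold. The order of the breeds thus differed between the 2 arms, but ssc-miR-2320* lay near the floor on both arrays. Its log2 ratio was 0.16 under scaling to the 75th percentile and 0.06 under quantile normalization, smaller than that limit. Neither arm was called past 2-fold.

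Of the 10 pig-only miRNAs, 2 were above the floor on both arrays, 1 in Bama minipigs only and 7 on neither. Their median signal was 14.4 in YB and 27.5 in YC. For the 14 other late-named miRNAs it was 107 and 73.0, but this rests on the 3 names shared with cattle (273 and 417), since the 11 names shared with human or mouse had medians of 17.6 and 14.6. The counts above the floor on at least 1 array were 3 of 10 and 7 of 14. These are small groups of probes, and the classes were not tested against each other. Counting the 3 names shared with cattle among the pig-only names gave 6 of 13, against 4 of 11 for the names shared with human or mouse, which turned the order.

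The pig-only miRNA with the brightest Bama minipig signal was ssc-miR-4334-5p, at 1006 in YB and 324 in YC, a log2 ratio of 1.64 or 3.11-fold. In these values it was the only late-named miRNA past 2-fold with both signals above the floor, and its log2 ratio stayed between 1.42 and 1.52 under the 3 scalings and an offset of 50. The other arm of the same hairpin, ssc-miR-4334-3p, had 852 and 895, a log2 ratio of -0.07. Of this hairpin, the probe of the 5p arm was past 2-fold and that of the 3p arm was not.

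The sequence printed for ssc-miR-4334-3p is contained in that of ssc-miR-339-5p, a miRNA known in many mammals. All 20 bases of ssc-miR-4334-3p are bases 1 to 20 of the 22 bases of ssc-miR-339-5p, and the seed is the same. Capitals mark the shared bases.
ssc-miR-4334-3p: UCCCUGUCCUCCAGGAGCUC
ssc-miR-339-5p: UCCCUGUCCUCCAGGAGCUCac
The probe for ssc-miR-339-5p gave 713 in YB and 724 in YC, a log2 ratio of -0.02, next to the -0.07 of ssc-miR-4334-3p. RNA of the one name can pair with the probe of the other over these 20 bases, so the array signals of the 2 names cannot be told apart. Whether the 3p arm itself differs between the breeds can therefore not be read from its probe. The 5p arm, whose signal was past 2-fold, had no such overlap of 10 or more bases with any other probe. Its seed occurs in 1 other probe, Y-53, which was under the floor with 7.34 and 8.42.

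ssc-miR-4331 had a signal of 307 in YB and 94.2 in YC. The Landrace signal was under the floor, and in the deposited values the Bama signal of ssc-miR-4331 was higher by at least 3.07-fold. This limit does not hold under other processing. The log2 ratio of ssc-miR-4331 was 1.51 under scaling to the 75th percentile, 1.43 under quantile normalization and 1.31 with an offset of 50, each a smaller difference than the limit. With a floor of 200 the limit fell below 2-fold. It shared neither its seed nor a run of 10 bases with any other probe.

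The other 7 pig-only miRNAs were under the floor on both arrays. The signals of ssc-miR-4332 were 51.2 and 57.9, the highest of the 7. This miRNA had the highest GC content of all 355 probes, 95.0%. ssc-miR-4335 had 14.2 and 21.2, and ssc-miR-4339 had 14.6 and 33.8. The lowest signals belonged to ssc-miR-4333 (5.83 and 3.77), ssc-miR-4336 (4.64 and 4.45), ssc-miR-4338 (2.70 and 2.63) and ssc-miR-4337 (0.447 and 1.64). ssc-miR-4333 and ssc-miR-4336 were also the longest of the 24, with 26 and 27 bases against a median of 22, and ssc-miR-4336 was the longest on the array.

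ssc-miR-4339 shares 12 bases with ssc-miR-486, a miRNA known from red blood cells. The shared bases are in capitals.
ssc-miR-4339: gcuCUGAGCUGCCCCuccucgucc
ssc-miR-486: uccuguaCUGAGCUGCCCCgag
The run covers bases 4 to 15 of ssc-miR-4339 and bases 8 to 19 of ssc-miR-486, so the seeds differ. The probe for ssc-miR-486 gave 208 in YB and 182 in YC, and the one for ssc-miR-4339 remained under the floor. Runs of 10 or more bases were also found between ssc-miR-4334-3p and ssc-miR-487b (10 bases, with 52.1 and 55.9 for the latter) and between ssc-miR-4336 and Y-7 (11 bases, with 1.19 and 8.21 for the latter). The other 21 late-named miRNAs shared no run of that length with another probe.

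In all, 2 of the 24 late-named miRNAs were 2-fold or more higher in Bama minipigs, ssc-miR-4334-5p by measured signals and ssc-miR-4331 as a limit, and 0 were lower. Both are pig-only names. Over the array, 185 probes had a signal of 100 or more on an array, and 12.4% of them were called higher and 2.7% lower by the same rule. Of the 10 late-named miRNAs that could be called, 2 were higher, which in so small a group is near this background. Among the 135 lower-numbered probes that could be called, 11 were higher and 5 lower.

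Without a floor, 3 late-named miRNAs were 2-fold or more higher in Bama minipigs and 4 were lower. Over all 355 probes, 19.4% were higher and 15.2% lower without a floor. Those counted only without a floor were ssc-miR-1839-5p among the higher and ssc-miR-1224, ssc-miR-1277, ssc-miR-4337 and ssc-miR-4339 among the lower. All 5 had signals of 33.8 or less on both arrays, and they are not counted as breed differences here.

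For the 8 late-named miRNAs above the floor on both arrays, log2 ratios lay between -0.93, that of ssc-miR-1306-5p, and 1.64, that of ssc-miR-4334-5p, with a median of -0.25. Of the 8, 2 were above 0 and 6 below. The median was -0.06 for the 126 lower-numbered probes measured on both arrays, of which 52 were above 0 and 74 below, and -0.02 for all 169 such probes. Taken without its sign, the log2 ratio had a median of 0.52 for the 8 and 0.24 for the 126. Median scaling shifted every log2 ratio by -0.11 and scaling to the 75th percentile by -0.19, and quantile normalization shifted those of the late-named miRNAs by a median of -0.20. Of the 8, ssc-miR-1307 alone changed sign under these scalings.

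The late-named miRNAs were richer in G and C than the lower-numbered ones, a feature the rule did not use. Their median GC content was 60%, from 18.2% for ssc-miR-1277 to 95.0% for ssc-miR-4332, compared with a median of 45.8% for the lower-numbered probes. None of the 6 late-named miRNAs with a GC content under 50% reached the floor on either array, whereas 8 of the 13 with 60% or more did. Of the 137 lower-numbered probes under 50%, 84 reached it. Of the 28 with 60% or more, 14 did. Across the 24 late-named miRNAs, GC content and the mean of the 2 signals had a Spearman's rho of 0.64 (Pearson's r of 0.58 on the log2 scale), and across the 225 lower-numbered probes rho was 0.07 (r of 0.11). These coefficients are across probes of the same arrays, whose binding depends on base composition, and they describe the probes only. The 2 sequences of lowest GC content among the 24 follow, with the seed in capitals, as the end of this range, although 5 of the 14 under the floor on both arrays had a GC content of 60% or more.
ssc-miR-1277: uACGUAGAuauauauguauuuu
ssc-miR-1839-3p: aGACCUACuuuucuaccaaca

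Both miRNAs past the 2-fold limit were rich in G. ssc-miR-4334-5p had the highest G content of the 24, 52.6%, and ssc-miR-4331 had 45.5%, equal to that of ssc-miR-1307, whose breed signals differed little. The other 21 had 42.9% or less, and none of them was past 2-fold with the floor of 100. On the whole array, 35 probes had a G content of 45% or more, and 29 of them were added Y- probes. Of the 35, 19 reached the floor on an array and so could be called, and of all 355 probes 185 could. The totals of 35 and of 320 other probes include those that could not be called. Among the 320, 13 were 2-fold or more higher in Bama minipigs and 5 lower. Among the 35, 10 were higher and 0 lower. Of these 10, 8 were added Y- probes and the other 2 were ssc-miR-4334-5p and ssc-miR-4331 themselves, and none of the 3 lower-numbered probes with such a G content reached the floor. Of the 16 G-rich probes measured on both arrays, 15 had a log2 ratio above 0, with a median of 0.99. The limit of 45% was chosen after the values had been seen, and whether base composition plays a part in the breed ratios was not tested.

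By name, 13 of the 20 hairpins were found in the RefSeq annotation of Sscrofa11.1. Because the series names no genome build, positions are not given, and the annotation used here lists whole genes, so exon and intron cannot be told apart. Of the 13, 9 lay within a protein-coding gene. Those with at least 1 arm above the floor included miR-1306 (DGCR8), miR-1307 (USMG5, a small subunit of the ATP synthase), miR-1343 (PDHX, a component of the pyruvate dehydrogenase complex) and miR-4334 (DNPEP, an aspartyl aminopeptidase). Another 4 were miR-1271 (ARL10, a small GTPase), miR-1296 (JMJD1C, a histone demethylase family member), miR-4337 (EXOC4, a subunit of the exocyst) and miR-4338 (HIVEP3, a zinc finger transcription factor). All 4 were under the floor on both arrays. The hairpin of miR-1839 lay in a long non-coding RNA gene, and those of miR-1224, miR-4331 and miR-4335 lay in no listed gene. The nearest gene to miR-4331 was C6H1orf174.

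Among the probes that the authors had added, 6 carry a later porcine name with a number above 1000 and so would belong to the late-named miRNAs in a newer miRBase. Of the 6, 3 were above the floor on both arrays and 3 on neither. Y-28 and Y-59, both listed as miR-2366, gave 137 in YB and 104 in YC for Y-28 (log2 ratio 0.40) and 141 and 116 for Y-59 (0.28). Y-60 (miR-2483) had 125 and 130, a log2 ratio of -0.05. Y-14 and Y-47, both listed as miR-7139-3p, had 68.7 and 15.8 (Y-14) and 68.3 and 27.0 (Y-47), and Y-61 (miR-3613) had 22.7 and 62.7. The last 3 were under the floor on both arrays, and no ratio is given for them.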

How the data were processed

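The deposited values are signal intensities, which the authors obtained from Cy5-stained custom arrays by subtracting the background, normalizing with a LOWESS filter and averaging repeat spots. How values were kept above 0 is not given in the sources used here. No background or spot data were used, nor were the study's detection calls, SDs, ratios or p-values. Each breed was 1 pool of 3 pigs on 1 array, and no test was made.

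Members were selected by name, and all were named in the text. The members, lists and floor were chosen with earlier results of these data known. A probe was called past 2-fold after signals under 100 had been set to 100. Sequences came from the study's list of probes, and runs of 10 or more bases on the same strand were searched over all 355. Alternatives, computed on the deposited values, were other floors, an offset and 3 scalings. The code for the scalings was checked on simulated data beforehand. Other named probes were ssc-miR-935, probes sharing a seed or run, markers, and added probes with later names. Python 3.11.15, numpy 2.4.6 and pandas 2.3.3 were used. The host gene of 1 hairpin is not reported here.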

Additional observations from a re-analysis of the deposited data

How the results depend on the processing

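The 2 late-named miRNAs higher in Bama minipigs, ssc-miR-4331 and ssc-miR-4334-5p, were also past 2-fold under each of the 3 scalings (median, 75th percentile, quantile), with an offset of 50, with a floor of 50 and with no floor. With a floor of 200, 1 was left, ssc-miR-4334-5p, because the limit for ssc-miR-4331 is set by the floor. The count of lower miRNAs, 0, became 1 under each of the 3 scalings (ssc-miR-1306-5p) and 4 without a floor. The median log2 ratio of the miRNAs above the floor on both arrays, -0.25, became -0.37 after median scaling, -0.071 with a floor of 50 or of 200 and -0.12 without a floor, and moved by under 0.1 otherwise. The sets of miRNAs above the floor changed with it, from 7 to 24.

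On the log2 scale, the median signal of the late-named miRNAs relative to that of the lower-numbered probes was -2.69 in YB and -2.45 in YC. With the brighter arm of each hairpin the values were -5.38 and -4.65, and against all other probes of the array -1.87 and -1.21. The late-named medians lay under the floor of 100, so these values are not exact ratios and give the order of the medians only. For the -1.21 in YC, the median of all other probes was under the floor too, so no limit follows there. Pig-only miRNAs above the floor on an array numbered 3 of 10, and 6 of 13 with miR-2320 and miR-2476 added. Both counts include ssc-miR-4334-3p, whose signal cannot be told apart from that of ssc-miR-339-5p. No replicate could be left out, and no paired analysis was possible because each breed had 1 array. Signal over background was not known, so ratios of weak probes have no measured limit.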
